A study of Mus musculus with 2 samples.

Results

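The genes examined were the 5 enzymes of the urea cycle (Cps1, Otc, Ass1, Asl and Arg1) together with 5 genes that feed, activate or flank the cycle (Nags, Gls2, Hal, Oat and Rhbg). They were taken by gene symbol, and all 10 were found among the 19465 genes of the deposited spatial transcriptomics (ST) libraries. Levels are given in CPM, the unique molecular identifiers (UMIs) of a gene scaled to a common library total. Of the 10, 8 reached a mean over the libraries of 10 CPM, the minimum used for counts of genes, which 6933 genes passed. Ass1 and Rhbg lay below it and are described by their values.

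The assay was 10x Visium on formalin-fixed, paraffin-embedded mouse liver, in which probe pairs bound to transcripts are captured on barcoded spots, each wider than a single cell and often of mixed cell types. The libraries were 1 of an AEG-1DMAC mouse, which lacks AEG-1 in myeloid cells, and 1 of an AEG-1fl/fl mouse, its floxed control, and both lay on the same slide. In AEG-1DMAC mice Cre recombinase from the Lyz2 locus deletes floxed Mtdh, the gene of AEG-1, in myeloid cells and not in hepatocytes. AEG-1fl/fl mice carry the floxed alleles without Cre. By the labels both mice were 27 weeks old and had been fed a high fat/high sugar diet (HF/HSD) from 7 weeks of age, that is for 20 weeks, whereas the study's text describes this assay on littermates fed a control diet, so the diet is uncertain. After the study's filter on spots, 2140 AEG-1DMAC spots with 45453286 UMIs and 2540 AEG-1fl/fl spots with 50322850 UMIs were analysed. With 1 library per genotype no test was possible. The intervals below are 95% intervals of counting error and do not cover the spread between mice or sections.

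The liver disposes of ammonia along the axis of its lobule, from the portal tract (zone 1) to the central vein (zone 3). Zone 1 hepatocytes release ammonia from glutamine and other amino acids and turn it into urea, whereas a narrow rim of hepatocytes around the central vein captures the ammonia that escapes and binds it to glutamate as glutamine. Glul, which encodes the glutamine synthetase of that rim, was not analysed here.

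Mtdh had 66.3 CPM in AEG-1DMAC against 60.2 CPM in AEG-1fl/fl (log2 ratio 0.14, 0.07 to 0.21). A spot holds mostly hepatocyte RNA, so this value does not check the deletion. Lyz2 was represented by 25 and 41 UMIs. Albumin (Alb) took 8.80% of UMIs in AEG-1DMAC and 14.2% in AEG-1fl/fl, and the median log2 ratio of all genes above the minimum was 0.15, with 5th and 95th percentiles of -0.29 and 0.54. The ratio over all spots of the 8 genes above the minimum is therefore also given relative to that median. Unless stated, other ratios are not set against it and are to be read with it in mind. Among marker lists of other cell types, the summed level was 541 against 522 CPM for Kupffer cells, 39.7 against 43.5 CPM for macrophages, 392 against 393 CPM for stellate cells and 368 against 381 CPM for endothelium, in AEG-1DMAC and AEG-1fl/fl, respectively. Within the Kupffer cell list Marco stood apart, at 13.9 against 36.1 CPM (log2 ratio -1.38, -1.51 to -1.24), whereas Clec4f, Cd5l and Vsig4 were at 0.05, 0.21 and -0.07. The neutrophil sum was 5.59 against 18.8 CPM, carried by S100a8 and S100a9 (-2.58 and -2.63). In the same list Csf3r was at -0.40 (-0.78 to -0.02) and Mmp9 at 0.40 (-0.27 to 1.08). The T cell sum was 11.2 against 5.27 CPM, the B cell sum 14.6 against 25.7 CPM and the erythroid sum 711 against 844 CPM, and no marker of any list was at 0. Their part in the results below was not tested. Between the libraries 1782 barcode sequences were shared (a barcode marks a position, and capture areas carry a common set).

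Among the genes above the minimum, Hal and Oat lay at the opposite ends of the lobule, as given further on, so the promoters of this pair are shown. Of the 10 genes, 5 (Otc, Ass1, Nags, Hal and Oat) matched the table of RefSeq promoters used here (GRCm38.p6, 250 bases before to 50 bases after the start of the gene). Cps1, Asl, Arg1, Gls2 and Rhbg were not matched. Sequences run 5′ to 3′ on the strand of the gene, and capitals mark the motifs found.
Hal promoter, chr10:93488518-93488817, plus strand: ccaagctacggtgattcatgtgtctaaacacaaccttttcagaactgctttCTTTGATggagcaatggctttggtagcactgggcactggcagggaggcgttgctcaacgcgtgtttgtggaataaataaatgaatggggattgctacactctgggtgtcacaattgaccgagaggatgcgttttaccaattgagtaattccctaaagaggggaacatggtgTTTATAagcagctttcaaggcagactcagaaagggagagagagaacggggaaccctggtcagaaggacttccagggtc
Oat promoter, chr7:132576349-132576648, minus strand: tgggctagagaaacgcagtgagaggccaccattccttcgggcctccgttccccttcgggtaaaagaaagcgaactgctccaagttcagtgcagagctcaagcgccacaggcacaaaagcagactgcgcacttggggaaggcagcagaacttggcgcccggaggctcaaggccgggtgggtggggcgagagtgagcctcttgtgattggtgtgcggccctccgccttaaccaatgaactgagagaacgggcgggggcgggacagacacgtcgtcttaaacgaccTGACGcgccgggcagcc
In Hal the capitals are CTTTGAT, a sequence bound by TCF/LEF factors, at bases 52 to 58, and the TATA box TATAAA on the opposite strand, printed as TTTATA, at bases 223 to 228. In Oat the capitals are TGACG, the core of a cAMP response element, at bases 284 to 288. Of 32851 promoters of the same length, 3.73% held CTTTGAT, 13.6% TATAAA and 20.8% TGACG on either strand. The Nags promoter held CTTTGAT and TGACG, and none of the motifs searched was in the Otc or Ass1 window. The other motifs searched were in none of the 5 windows. They were the full cAMP response element TGACGTCA, which overlaps the shorter core (1.79% of promoters), a second TCF/LEF form CTTTGAA (5.14%), the core of HNF4 sites CAAAGTCCA (0.475%), the glucocorticoid receptor element TGTTCT (19%) and the C/EBP palindrome TTGCGCAA (0.183%). These matches describe the letters in the window only.

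The level of the enzymes of the cycle was compared first. Of the 5, Cps1, Otc, Asl and Arg1 were 1.09 to 1.15 times as high in AEG-1DMAC as in AEG-1fl/fl, a difference of about the size of the median difference of all genes. Ass1 could not be told apart between the libraries at its depth. In bulk sums such as these, fewer cells of a type and less RNA per cell cannot be told apart.

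Cps1 (chromosome 1, 67123026 to 67231259, plus strand; coordinates are of GRCm38, and all 10 genes are protein-coding) encodes the mitochondrial enzyme that makes carbamoyl phosphate from ammonia and commits it to the cycle. It had 4006 CPM (3988 to 4025) in AEG-1DMAC and 3527 CPM (3511 to 3544) in AEG-1fl/fl. The log2 ratio was 0.18 (0.17 to 0.19), which is 0.04 above the median of all genes and at percentile 58.3 among them. Otc (chromosome X, 10252305 to 10321024, plus strand) joins carbamoyl phosphate to ornithine to form citrulline. Its levels were 190.7 and 174.5 CPM, and the log2 ratio of 0.13 (0.09 to 0.17) was the smallest of the 4. Relative to the median of all genes Otc was at -0.02, and it was at -0.01 when the 50 most abundant genes were left out of the scaling, so its direction depended on the scaling.

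Ass1 (chromosome 2, 31470207 to 31520672, plus strand), which condenses citrulline with aspartate, was represented by 367 UMIs in AEG-1DMAC and 391 UMIs in AEG-1fl/fl, or 8.07 CPM (7.27 to 8.94) and 7.77 CPM (7.02 to 8.58). A UMI of Ass1 was found in 15.9% and 14.0% of spots. Counts of a probe-based assay depend on the binding of each probe, so the few UMIs of Ass1 are not read as a low level of its transcript. The interval of its log2 ratio (0.06, -0.15 to 0.26) included 0, so a difference was not detectable with these counts.

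Asl (chromosome 5, 130011258 to 130029247, minus strand) splits argininosuccinate into arginine and fumarate. Its level was 514.0 CPM in AEG-1DMAC and 448.2 CPM in AEG-1fl/fl, and the log2 ratio of 0.20 (0.17 to 0.22) lay at percentile 61.3. Arg1 (chromosome 10, 24915221 to 24927484, minus strand) releases urea from arginine and returns ornithine to the cycle. Its levels were 1655 CPM (1643 to 1667) and 1462 CPM (1451 to 1472), with a log2 ratio of 0.18 (0.16 to 0.19). Relative to the median of all genes, Asl was at 0.05 and Arg1 at 0.03.

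The genes that supply and activate the cycle were lower in AEG-1DMAC. Nags (chromosome 11, 102145513 to 102149477, plus strand) makes N-acetylglutamate, the obligatory activator of the Cps1 enzyme. The levels were 110.7 CPM (107.6 to 113.8) in AEG-1DMAC and 121.7 CPM (118.6 to 124.8) in AEG-1fl/fl, and the log2 ratio was -0.14 (-0.19 to -0.08). Its distance from the median of all genes was -0.28, at percentile 9.88. Gls2 (chromosome 10, 128194457 to 128210004, plus strand) is the liver-type glutaminase, which frees ammonia from glutamine. Its levels were 273.9 CPM (269.1 to 278.8) and 338.5 CPM (333.4 to 343.6), so that AEG-1fl/fl was 1.24 times as high. The log2 ratio was -0.31 (-0.34 to -0.27), which is -0.45 relative to all genes and at percentile 4.63. Hal (chromosome 10, 93488768 to 93519304, plus strand) encodes histidine ammonia-lyase, which frees ammonia from histidine. It had 173.0 CPM (169.2 to 176.9) and 206.6 CPM (202.6 to 210.6), a log2 ratio of -0.26 (-0.30 to -0.21) that was -0.40 relative to all genes. Each of the 3 other scalings lowered every log2 ratio by a fixed amount, so Nags, Gls2 and Hal could only move further below 0. These scalings are therefore no check on the direction of the 3 genes. In bins of the lobule shared by both libraries, described further on, Nags was at -0.16, Gls2 at -0.04 and Hal at 0.04.

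The pair of zone 3 genes was higher in AEG-1DMAC. Oat (chromosome 7, 132557478 to 132576398, minus strand) is ornithine aminotransferase, which links ornithine with glutamate and so connects the substrate of the cycle to glutamine formation around the central vein. It had 631.2 CPM (623.9 to 638.6) in AEG-1DMAC and 343.7 CPM (338.6 to 348.9) in AEG-1fl/fl, or 1.84 times as much. The log2 ratio of 0.88 (0.85 to 0.90) was at percentile 98.4 of all genes and 0.73 above their median. Rhbg (chromosome 3, 88242874 to 88254709, minus strand), a membrane transporter of ammonia of the Rhesus family, was represented by 333 UMIs in AEG-1DMAC and 187 UMIs in AEG-1fl/fl. This was 7.33 CPM (6.56 to 8.16) against 3.72 CPM (3.20 to 4.29), a log2 ratio of 0.98 (0.72 to 1.25). Both genes stayed higher in AEG-1DMAC under every scaling tried. The fixed shift of the other scalings was smaller than either ratio, so they could not change the direction and are no check on it.

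**Figure D1:**
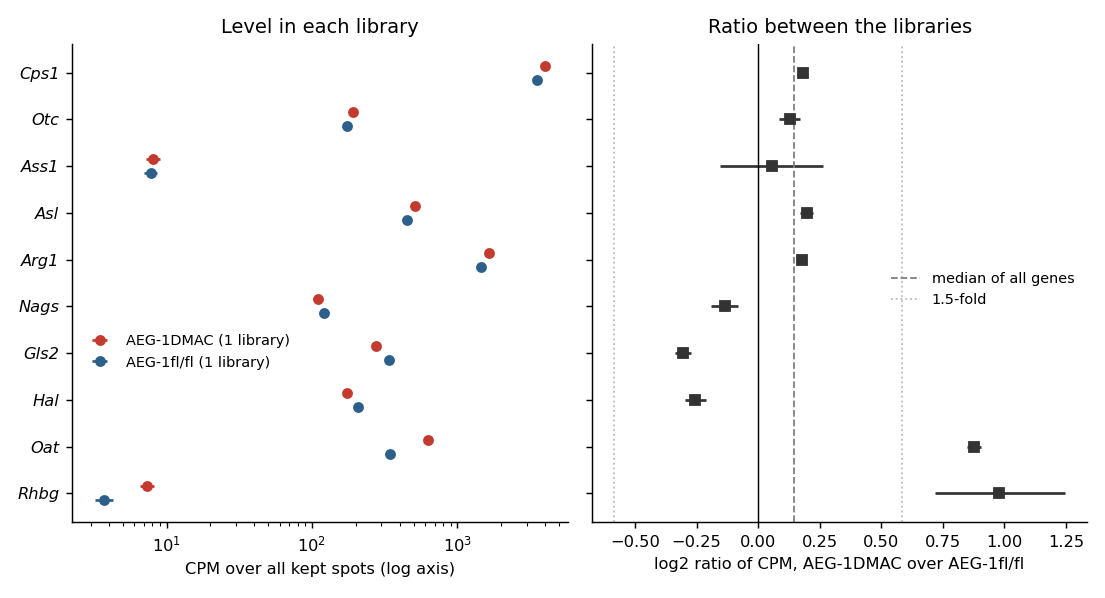
The left panel shows the CPM of each gene over all kept spots of the AEG-1DMAC library (red) and the AEG-1fl/fl library (blue) on a log axis, with exact Poisson 95% intervals; levels are to be compared between libraries and not between genes. The right panel shows the log2 ratio with its exact 95% counting interval, the median of all genes (0.15, dashed) and the 1.5-fold limits (dotted): Oat and Rhbg lie beyond the upper limit, and Nags, Gls2 and Hal lie left of 0.

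At a ratio of at least 1.5 with the interval on the same side, 1 of the 8 genes above the minimum, Oat, was higher in AEG-1DMAC, where 4.30% of all 6933 genes were, and 0 of 8 were lower, where 1.79% of all genes were. The background itself depended on the scaling: 298 genes were higher and 124 lower, a share of 70.6% higher, against 48.5% with TMM factors, 46.6% with the 50 most abundant genes left out of the scaling and 46.2% relative to the median. At a minimum of 1 CPM, Rhbg was counted as well. The ratio of Oat UMIs to Gls2 UMIs within a library, which no scaling between libraries can alter, was 2.30 in AEG-1DMAC and 1.02 in AEG-1fl/fl. Oat and Gls2 had the highest and the lowest log2 ratio of the 8 genes, so this contrast restates their ratios and is not further support. With the shared bins described further on, Oat was at 0.29 and Gls2 at -0.04.

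Zonation was then examined inside each library. Spots were ranked by a zone index, the mean scaled level of the zone 3 genes Cyp2e1 and Cyp1a2 minus that of the zone 1 genes Pck1, Cyp2f2 and Hsd17b13, so that none of the 10 genes entered the index. The ranked spots were divided into terciles of 713 spots in AEG-1DMAC and 847 spots in the outer terciles of AEG-1fl/fl, and the zone ratio was the log2 ratio of CPM in the zone 3 tercile over the zone 1 tercile. This ratio is free of the scaling between libraries. Its median over all genes was 0.09 in AEG-1DMAC and 0.08 in AEG-1fl/fl. The genes fell into 3 kinds: Gls2 and Hal were steeply graded towards zone 1, the enzymes Cps1, Otc, Asl and Arg1 shallowly so, and Oat and Rhbg were graded towards zone 3, with Nags close to flat.

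Gls2 fell from 415 CPM in the zone 1 tercile to 264 and 141 CPM in the middle and zone 3 terciles of AEG-1DMAC. In AEG-1fl/fl the same series was 449, 355 and 211 CPM. The zone ratios were -1.56 (-1.63 to -1.48) and -1.09 (-1.15 to -1.03), that is 2.94-fold and 2.13-fold higher in zone 1. Hal was the most strongly zone 1-biased of the 10 genes in both libraries. It went from 271 to 165 and 82.3 CPM in AEG-1DMAC and from 289 to 212 and 118 CPM in AEG-1fl/fl, with zone ratios of -1.72 (-1.81 to -1.63) and -1.30 (-1.37 to -1.22). At percentiles 0.274 and 0.245, fewer than 1% of all genes were as strongly biased to zone 1.

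The enzymes of the cycle were present in every part of the lobule, with more in zone 1. Arg1 was 1.57-fold higher in zone 1 in AEG-1DMAC and 1.37-fold higher in AEG-1fl/fl, with zone ratios of -0.65 (-0.67 to -0.62) and -0.45 (-0.48 to -0.43). Asl was at -0.56 (-0.61 to -0.52) and -0.50 (-0.55 to -0.45). Otc had zone ratios of -0.36 (-0.43 to -0.28) and -0.33 (-0.40 to -0.25), and Cps1 of -0.32 (-0.34 to -0.30) and -0.38 (-0.39 to -0.36). Shallow as they were, the zone ratios of Cps1, Otc, Asl and Arg1 lay between percentiles 1.73 and 5.45 of all genes in either library. Across 10 equal bins of the index, Cps1 went from 4521 to 3014 CPM in AEG-1DMAC and from 4241 to 2621 CPM in AEG-1fl/fl, so that even the bin nearest the central vein kept most of its level. For Ass1 the zone ratio was -0.20 (-0.58 to 0.17) in AEG-1DMAC and -0.14 (-0.50 to 0.23) in AEG-1fl/fl, and a gradient was not detectable with these counts. Nags was the exception among the genes of urea formation, with zone ratios of 0.15 (0.05 to 0.24) and 0.11 (0.02 to 0.20), near the median of all genes.

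Oat ran the other way. It had 198, 451 and 1255 CPM in the zone 1, middle and zone 3 terciles of AEG-1DMAC and 116, 220 and 704 CPM in those of AEG-1fl/fl, and its zone ratios were 2.67 (2.61 to 2.72) and 2.61 (2.54 to 2.68). Both lay at percentile 99.96, so that almost no other gene was as strongly zoned to the central vein. From the first to the last of the 10 bins Oat went from 104 to 1727 CPM in AEG-1DMAC and from 65.3 to 1200 CPM in AEG-1fl/fl, most of it in the last 3 bins. Rhbg followed the same course at far fewer UMIs, from 2.04 to 24.4 CPM and from 1.24 to 14.0 CPM. Its zone ratios were 2.27 (1.79 to 2.77) and 2.63 (1.94 to 3.39).

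**Figure D2:**
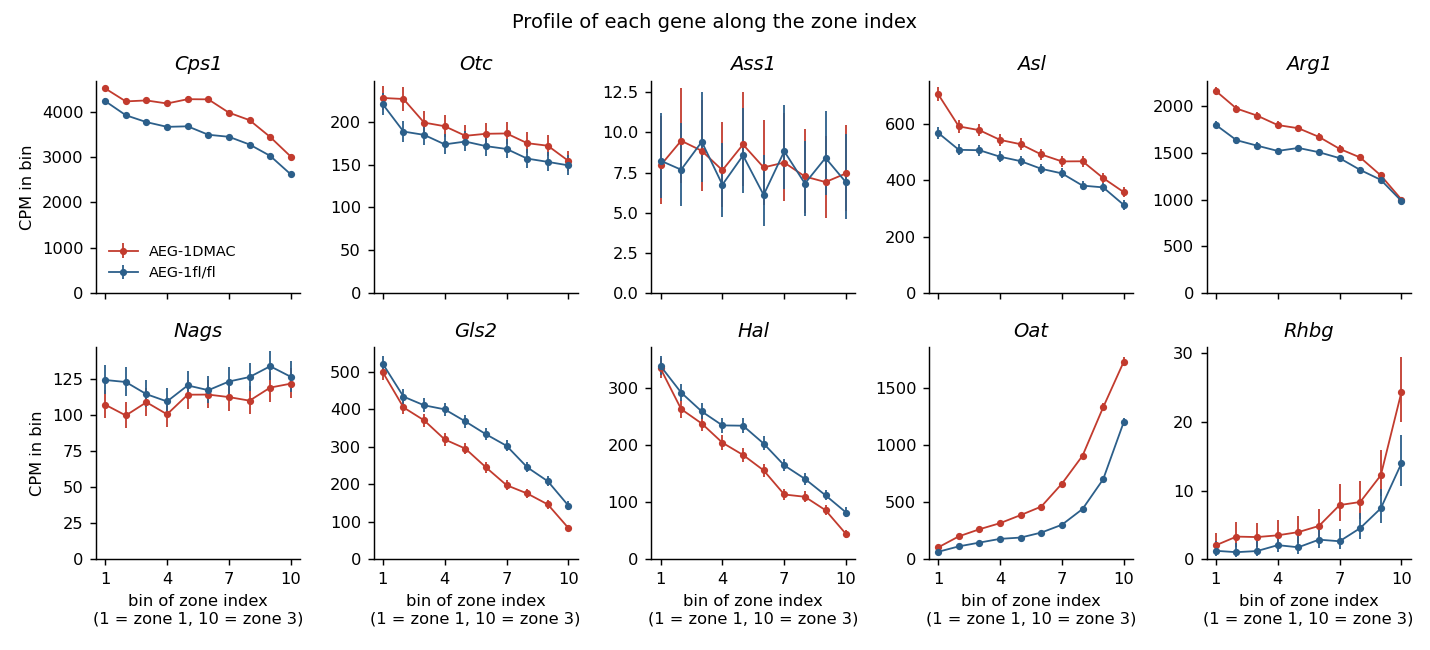
CPM of each gene (vertical axes from 0, a separate scale for each gene) in 10 equal bins of the spots of a library ranked by the zone index, from bin 1 (zone 1) to bin 10 (zone 3), in AEG-1DMAC (red) and AEG-1fl/fl (blue), with exact Poisson 95% intervals. Gls2 and Hal decline throughout, Oat and Rhbg rise steeply in the last bins, and Nags and Ass1 show no steep course.

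By the rule of at least 1.5-fold on the same side in both libraries, 2 of 8 genes, Gls2 and Hal, were zoned to zone 1, where 1.07% of all genes were. Oat was zoned to zone 3 (1 of 8), where 2.02% of all genes were. Arg1 passed 1.5-fold in AEG-1DMAC alone. A mean position along the index was also taken, from the middles of the 10 bins weighted by the CPM of the gene in each. On this scale the index runs from 0 at zone 1 to 1 at zone 3. It gave nearly the same order: 0.362 and 0.393 for Hal, 0.373 and 0.409 for Gls2, 0.444 and 0.459 for Arg1, 0.449 and 0.454 for Asl, 0.473 and 0.466 for Cps1, 0.469 and 0.470 for Otc, 0.514 and 0.508 for Nags, and 0.711 and 0.727 for Oat, in AEG-1DMAC and AEG-1fl/fl. Otc and Cps1 exchanged places between the libraries, and so did Arg1 and Asl, so these neighbours have no settled order.

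**Figure D3:**
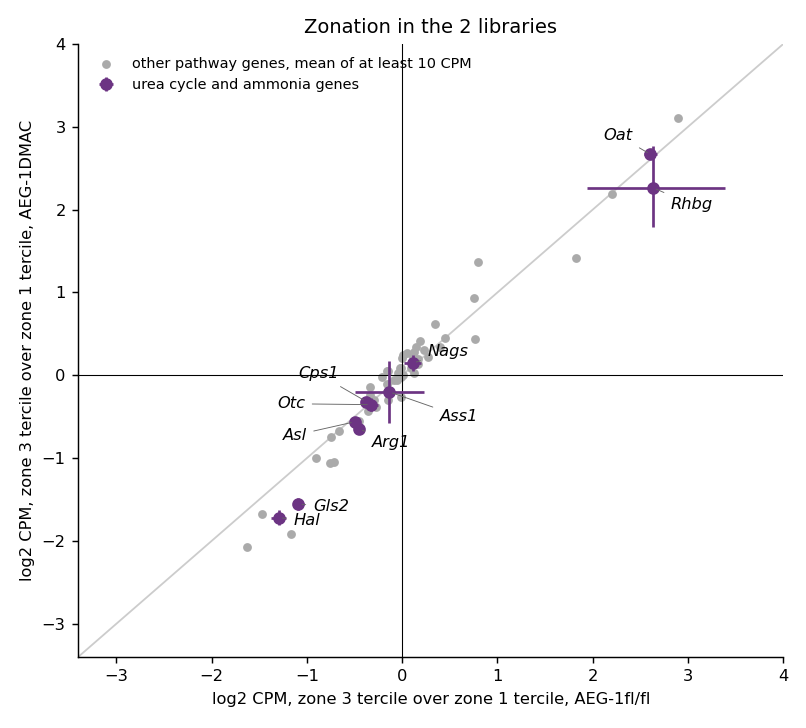
Zone ratio (log2 CPM, zone 3 tercile over zone 1 tercile) in AEG-1fl/fl (horizontal axis) and AEG-1DMAC (vertical axis) for the 10 genes (purple, with exact 95% counting intervals) and the other genes of the pathway lists (grey); the diagonal marks equal zonation. Gls2 (-1.09 and -1.56) and Hal lie below the diagonal, and Oat (2.61 and 2.67) lies near it.

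The steepness of the gradients was compared between the libraries. Gls2 and Hal were more steeply graded in AEG-1DMAC. The zone ratio of Gls2 was 0.47 lower there than in AEG-1fl/fl (difference -0.47, -0.56 to -0.37), and that of Hal differed by -0.42 (-0.54 to -0.30), at percentiles 1.90 and 2.50 of all genes. Arg1 shared the direction with a smaller difference of -0.19 (-0.23 to -0.16), at percentile 12.6. Cps1 went the other way and was slightly shallower in AEG-1DMAC, with a difference of 0.06 (0.03 to 0.08). For Oat the comparison depended on the setting: the difference was 0.06 (-0.03 to 0.15), but 0.16 (0.08 to 0.25) with the landmark index, 0.15 (0.05 to 0.26) among spots matched on UMIs and 0.09 (0.01 to 0.18) with the zone 1 genes of the index alone, and -0.05 (-0.14 to 0.04) with cut points shared by both libraries. For Rhbg the interval ran from -1.24 to 0.51. When the terciles were replaced by parts cut at points shared by both libraries, the difference was -0.29 for Gls2, at percentile 7.88, -0.22 for Hal, at percentile 13.8, -0.10 (-0.14 to -0.06) for Arg1, at percentile 32.1, and 0.14 (0.12 to 0.17) for Cps1, at percentile 84.8.

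The same counts were also laid out as the ratio between the genotypes at each position. The change of this ratio from the zone 1 to the zone 3 tercile restates the difference of zone ratios and is not a second observation. In terciles ranked within each library, Gls2 had a log2 ratio, AEG-1DMAC over AEG-1fl/fl, of -0.11 (-0.16 to -0.06) in the zone 1 tercile, -0.42 (-0.48 to -0.37) in the middle and -0.58 (-0.66 to -0.50) in the zone 3 tercile. Hal was at -0.10 (-0.16 to -0.04), -0.36 (-0.43 to -0.28) and -0.52 (-0.62 to -0.42). Both were lower in AEG-1DMAC in 10 of 10 bins, with the interval below 0 in 9 of them. Oat was higher in 10 of 10 bins, from 0.53 in bin 10 to 1.13 in bin 7, with every interval above 0, and its terciles were at 0.77 (0.69 to 0.86), 1.03 (0.98 to 1.09) and 0.83 (0.80 to 0.87). Rhbg was also higher in 10 of 10 bins, 5 of them with an interval above 0. Cps1 and Asl were higher in 10 of 10 bins, each interval above 0. Arg1 went from 0.27 in the zone 1 tercile to 0.07 in the zone 3 tercile. Genes as a whole were shifted the same way, with tercile medians of 0.135, 0.160 and 0.147 from zone 1 to zone 3. Set against these medians in that order, Cps1 was at -0.005, 0.08 and 0.04, and Asl at 0.11, 0.002 and 0.03. Arg1 was then at 0.13, 0.002 and -0.07. The counts of bins were not set against such a median. Nags was lower in each bin, though only 4 of the intervals lay below 0.

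Ranking within a library gives each section the same share of zone 3 spots, whatever its true share. When the spots of both libraries were ranked on 1 index with shared cut points, 43.8% of AEG-1DMAC spots fell in the zone 3 part, against 24.5% in AEG-1fl/fl, and 24.1% against 41.1% fell in the zone 1 part. An index of landmark genes gave 40.7% against 27.1% for zone 3. The genes that make the index themselves differed: Cyp2e1 had 7264 against 2841 CPM, a log2 ratio of 1.35, Cyp1a2 was at 1.05, Pck1 at 0.78, Cyp2f2 at 0.19 and Hsd17b13 at -0.48. A section with more zone 3 tissue and a higher level of zone 3 genes at the same place cannot be told apart here. Of the zone 3 landmarks, Slc1a2, Lect2 and Gulo had log2 ratios of 1.13, 0.74 and 0.31, each above the median of all genes. The zone 1 landmarks went both ways, with G6pc at 0.58, Ctsc at 0.22, Hsd17b6 at -0.10, Etnppl at -0.67 and Aldh1b1 at -0.91.

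With the shared bins weighted alike in both libraries, the contrast between the zone 1 and zone 3 genes shrank. The log2 ratio of Oat was 0.29 in place of 0.88, and that of Rhbg 0.38 in place of 0.98. Gls2 moved from -0.31 to -0.04 and Hal from -0.26 to 0.04 (-0.01 to 0.08), an interval that includes 0, so that no direction was detectable for Hal under this setting. With the landmark index these were 0.44 for Oat, 0.52 for Rhbg, -0.13 for Gls2 and -0.06 (-0.10 to -0.01) for Hal. With shared bins of either index Oat remained higher but no longer reached 1.5-fold. Inside the shared parts, Oat was at 0.43 (0.35 to 0.52), 0.38 (0.33 to 0.44) and 0.38 (0.35 to 0.42) from zone 1 to zone 3, nearly the same in each. Gls2 was at 0.01 (-0.04 to 0.06), -0.06 (-0.12 to -0.01) and -0.28 (-0.36 to -0.20), and Hal at 0.04, 0.04 and -0.17 (-0.28 to -0.07), so that both were lower in AEG-1DMAC in the zone 3 part. The enzymes of the cycle moved up, to 0.26 for Cps1, 0.20 for Otc, 0.32 for Asl and 0.30 for Arg1, and Nags stayed at -0.16.

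**Figure D4:**
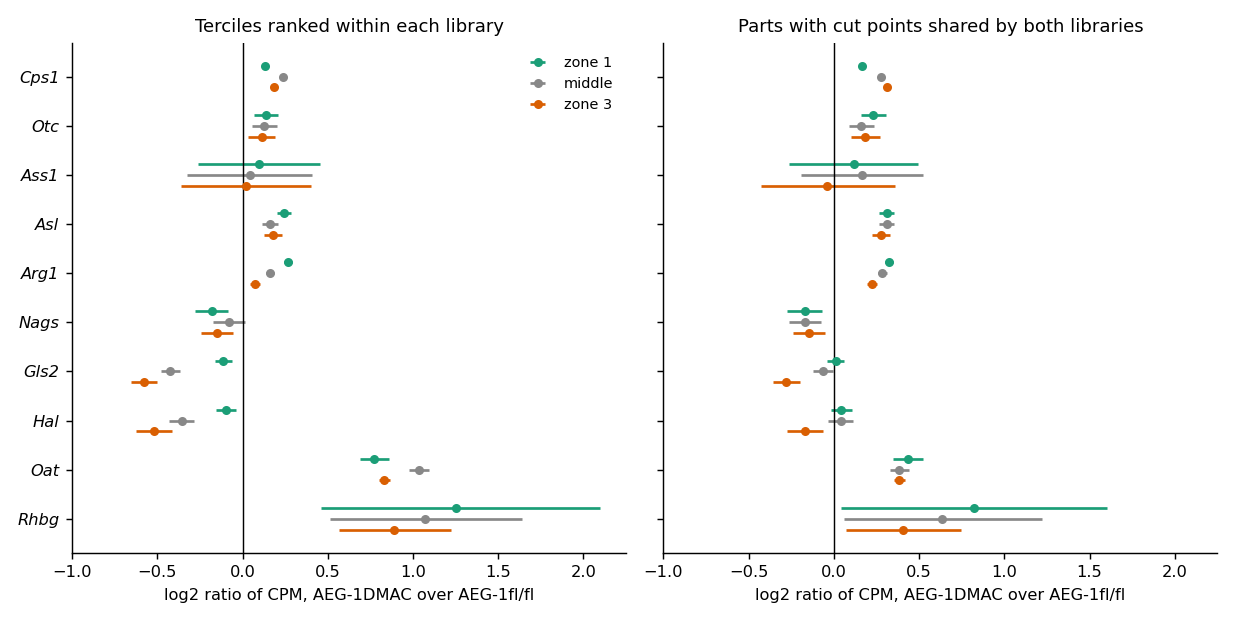
Log2 ratio of CPM, AEG-1DMAC over AEG-1fl/fl, in zone 1 (green), the middle (grey) and zone 3 (orange), with exact 95% counting intervals, in terciles ranked within each library (left) and in parts with shared cut points (right). Oat and Rhbg lie right of 0 in every part of both panels, and Gls2 and Hal lie nearer to 0 in the right panel but stay below it in zone 3.

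The share of spots with a UMI was compared at equal depth, since the median spot had 20929.5 UMIs in AEG-1DMAC and 18285 UMIs in AEG-1fl/fl. Each spot was thinned to 10000 UMIs, which left out 26 AEG-1DMAC spots and 106 AEG-1fl/fl spots that were shallower. Rhbg was then found in 6.39% (5.38% to 7.51%) of AEG-1DMAC spots and 3.33% (2.65% to 4.12%) of AEG-1fl/fl spots, against 12.9% and 6.53% unthinned. In the zone 3 tercile the shares of Rhbg were 11.7% and 6.74%, and in the zone 1 tercile 2.98% and 1.49%. Oat was found in most spots even of the zone 1 tercile, 76.5% of them in AEG-1DMAC and 61.6% in AEG-1fl/fl (90.6% and 79.6% unthinned). In the zone 3 tercile Gls2 was found in 70.9% and 83.4% of spots (88.0% and 92.5% unthinned), and Hal in 55.9% and 68.3% (77.0% and 83.8% unthinned). These shares followed the CPM in direction for each gene and tercile named.

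Across spots, the genes divided along the same line. As a description over 2140 AEG-1DMAC spots and 2540 AEG-1fl/fl spots, which share a library and a depth, the Pearson correlation of log-normalised values was 0.68 and 0.51 between Cps1 and Arg1, and 0.52 and 0.42 between Gls2 and Hal. Oat was opposed to Gls2 (-0.60 and -0.49) and to Arg1 (-0.63 and -0.53). Of the 2181 genes that reached a mean of 50 CPM, those most like Oat were Cyp2e1 (0.75 and 0.76), Cyp2c29 (0.74 and 0.71), Gulo (0.73 and 0.69), Cyp1a2 (0.78 and 0.68) and Rnase4 (0.67 and 0.67). Those most like Gls2 were Cyp2f2 (0.68 and 0.58), Hpx (0.58 and 0.56), Pck1 (0.64 and 0.52), Alb (0.68 and 0.47) and Hsd17b13 (0.60 and 0.47).

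The remaining genes of ammonia and amino acid metabolism were examined as lists. Of the carriers and helpers of the cycle (Cps1 and Otc included), 7 of 9 passed the minimum. At 1.5-fold 0 were higher and 0 were lower (4.30% and 1.79% of all genes). Their median log2 ratio was 0.18 against 0.15 for all genes. Car5a, the mitochondrial carbonic anhydrase that supplies bicarbonate to the Cps1 enzyme, had 122.1 against 86.3 CPM, a log2 ratio of 0.50 (0.44 to 0.56). Slc25a13, the aspartate-glutamate carrier, was at 0.32, and Slc25a15, the ornithine carrier, at 0.22. The 4 genes of histidine breakdown, Hal among them, had a median of -0.18. At 1.5-fold 0 of them were higher and 0 lower, against the same shares of all genes. After Hal, Uroc1 and Amdhd1 carry out the next steps and were at -0.21 (-0.24 to -0.18) and -0.15 (-0.18 to -0.12), whereas Ftcd, the last step, was at 0.05 (0.02 to 0.08). All 4 were zoned to zone 1 in both libraries by the 1.5-fold rule, against 1.07% of all genes, and Uroc1 was at -1.05 and -0.71.

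Among the 10 genes of ammonia release and transamination, Gls2 included, 0 were higher and 1 was lower (4.30% and 1.79% of all genes). Their median was 0.03, against 0.15 for all genes. Zoned to zone 1 were 5 of them, Gls2 again included, against 1.07% of all genes. The lower gene was Sdsl, related to serine dehydratase, at 17.7 against 27.9 CPM (log2 ratio -0.66, -0.78 to -0.53). Gpt2, the mitochondrial alanine aminotransferase, was at 0.50 (0.43 to 0.57), and Glud1, glutamate dehydrogenase, at 0.30 (0.28 to 0.32). The 14 genes that break down other amino acids had a median of 0.20. Of them 0 were lower and 1 was higher (1.79% and 4.30% of all genes). This was Prodh, proline dehydrogenase, whose product is the same glutamate semialdehyde intermediate that Oat forms from ornithine. It had 155.7 against 84.6 CPM, a log2 ratio of 0.88 (0.83 to 0.94), and zone ratios of 0.93 and 0.75.

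In the list of pericentral glutamate and glutamine handling, which holds Oat and Rhbg, 2 of the 7 genes measured passed the minimum. Both were higher, against 4.30% of all genes. Besides Oat this was Slc1a2, a glutamate transporter of the pericentral rim, with 127.4 against 58.2 CPM, a log2 ratio of 1.13 (1.07 to 1.20), and zone ratios of 3.11 and 2.89. Not every member below the minimum shared this direction. Slc1a4, a transporter of small neutral amino acids that was also zoned to zone 3 (2.53 and 1.92), had 3.34 against 6.44 CPM, a log2 ratio of -0.95 (-1.23 to -0.66). Aldh18a1, which forms the semialdehyde from glutamate, was at -0.60 (-0.91 to -0.29). Among 9 amino acid transporters, 7 passed the minimum, 2 were higher and 1 was lower (4.30% and 1.79% of all genes). Slc3a1, a subunit of a transporter of cystine and dibasic amino acids, had 34.4 against 94.6 CPM, a log2 ratio of -1.46 (-1.54 to -1.38). Slc16a10, a transporter of aromatic amino acids, was at 0.90 (0.84 to 0.96), and Slc38a2, a transporter of small neutral amino acids, at 0.86 (0.79 to 0.93).

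Of 8 regulators of these genes, 7 passed the minimum, 1 was higher and 0 were lower (4.30% and 1.79% of all genes). Their median was 0.26, against 0.15 for all genes. Cebpb, a transcription factor of the hepatic response to hormones and inflammation, had 286.7 against 123.0 CPM, a log2 ratio of 1.22 (1.18 to 1.26). Foxo1 was at 0.48 and Hnf4a at 0.46. Of 7 targets of Wnt signalling, the pathway that maintains the gene programme of zone 3, 3 passed the minimum. Of these 3, 2 were higher, against 4.30% of all genes. Notum had 40.4 against 23.5 CPM, a log2 ratio of 0.78 (0.67 to 0.89), and Znrf3 was at 0.67 (0.51 to 0.82). Tbx3 was at -0.19 (-0.34 to -0.04), with zone ratios of 2.19 and 2.21. The higher share of zone 3 spots in AEG-1DMAC on the shared index moved with Oat, Slc1a2, Notum and Znrf3, and its part in these ratios was examined only for the 10 genes.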

How the data were processed

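Liver sections of 1 AEG-1DMAC and 1 AEG-1fl/fl mouse were measured by ST, and groups were taken from the genotype labels. Space Ranger 2.0.1 and the mm10 build were used by the authors for the reads, and Seurat 4.3.0 is named in the submitters' processing notes. The deposited matrices hold a raw UMI count per gene and spot, with no normalisation. As in the study, spots with more than 50000 UMIs, fewer than 100 genes or more than 7000 genes were removed, 9 from AEG-1DMAC and 3 from AEG-1fl/fl. UMIs were then summed over spots and scaled to CPM (Python 3.11.15, numpy 2.4.6, scipy 1.17.1, pandas 2.3.3). A minimum mean of 10 CPM stood for 455 UMIs in AEG-1DMAC and 503 UMIs in AEG-1fl/fl.

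A library's CPM was given an exact Poisson interval, a share an exact binomial interval and a ratio an exact conditional binomial (Clopper-Pearson) interval, each at 95% and covering counting error only. For a difference of zone ratios the widths of both intervals were added in quadrature. No test was run, because spots are not replicates of a genotype. TMM factors came from edgeR 4.0.16 in R 4.3.3. The zone index used log-normalised values (10000 UMIs per spot) scaled within a library, and the shared index the same values scaled over both. Positions of spots were not used here.

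All 10 genes are named. From each pathway list up to 3 genes above the minimum with the log2 ratio of largest size were named, plus Slc1a2, Mtdh and Lyz2. Slc1a4 and Aldh18a1, which lay below the minimum and were lower in AEG-1DMAC, were named outside this rule. For Gls2 and Oat the 5 genes with the highest correlation over spots were named, ranked by the lower value of the libraries. Genes and lists were chosen with earlier results of these data known. Some genes of the lists are not reported here. Coordinates came from GENCODE M21 (GRCm38), matched by Ensembl identifier, another annotation than that used for counting. Computations were tested on simulated data. Alternatives were other scalings, all spots, the mean over spots, spots matched on UMIs, other zone indices, the outer 10% of spots, shared bins, and other thresholds.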

Additional observations from a re-analysis of the deposited data

How the results depend on the processing

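Between the genotypes, 1 gene (Oat) was at least 1.5-fold apart. The count was 0 with shared zone bins, 0 with shared bins of the landmark index, a setting chosen after seeing the data, and 0 at a threshold of 2-fold. It was 2 (Oat and Rhbg) at a minimum of 1 CPM, since the lower minimum admits Rhbg. The number zoned in both libraries was 3, and 6 with the outer 10% of spots at each end of the index, which widens the contrast by construction and adds Cps1, Asl and Arg1. The shares of all genes with shared bins, other thresholds or the outer 10% are not given here. These changes in count are therefore not set against a background.

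Of the genotype ratios under other settings, 38 moved by less than their counting interval, 39 moved further with the same sign, and 3 reversed. Otc reversed to -0.014 with the 50 most abundant genes left out of the scaling and to -0.018 relative to the median of all genes, settings that shift all genes alike, and Hal to 0.036 with shared zone bins, with an interval (-0.006 to 0.078) that includes 0; the cause was not tested. The log2 ratio of Oat ranged from 0.29 to 0.91 and that of Gls2 from -0.45 to -0.04. Of the zone ratios, 86 moved by less than their interval, 54 further, and 0 reversed. Ass1, whose intervals include 0, changed sign within them. TMM factors moved the median of all genes from 0.15 to 0.02.

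No paired analysis was possible because each genotype had 1 library. The spread between mice is therefore unknown for every difference given. Depth limits Ass1 and Rhbg, which had fewer than 400 UMIs in a library.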
